A study of Mus musculus with 5 samples.

Results

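A set of 1392 T-rich 3′ UTR intervals of middle length was described in SLAMseq libraries of mouse cardiac fibroblasts (CF). The members were the distinct intervals longer than 300 and shorter than 3000 bases in which T made up at least 36% of the letters. They were 6.01% of the 23171 distinct intervals of this length and carried 1039 gene names. The whole annotation held 40428 distinct intervals of 20365 gene names. The rule used only length and base composition, and no T>C rate or read count. Base composition sets the T positions that a read covers, so limits on covered T positions were not free of the rule. The libraries came from CF of healthy adult male C57Bl/6J mice, isolated by collagenase perfusion of the heart and grown to confluency. Labeled CF (3 libraries) received 0.1 mM S4U for 12 h, and unlabeled CF (2 libraries) were kept for the same 12 h without S4U. RNA of both groups was treated with iodoacetamide and read as 3′ end libraries with molecular identifiers. Per the study's reporting form, the SLAMseq experiment used separate CF preparations. The labels do not tie libraries to preparations or animals, so p-values measure the spread between these libraries.

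SLAMseq marks RNA that is made during labeling. S4U is a uridine analog that replaces uridine in new RNA, and the alkylated base is then sequenced as C where the genome has T. The T>C conversion rate is the number of conversions divided by the number of covered T positions, and it rises with the fraction of a transcript that was made during labeling. The 3′ UTR is a main site of control of mRNA stability, and stretches rich in A and U, such as AUUUA repeats, are known from short-lived mRNAs of cytokines and immediate early genes. Other U-rich stretches are bound by proteins that stabilise mRNA or guide 3′ end formation.

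Sequence windows of 30 bases were taken from GRCm39 on the transcript strand (T stands for U). The first set comes from the members with the highest and the lowest T>C rates among those with at least 1000 covered T positions per library (below called deeply covered), with the first TTATTTATT (only in Lurap1l) or else the first ATTTA in capitals. They are shown because the same short motif occurred at both ends of the rate scale. Intervals of high rate come first, and those of Pam, Lamp2, Svep1, Tmem59 and Lum are of low rate. The sixth high-rate interval, that of Ptpn12, held no ATTTA.
Asb5: tctttggtttatATTTAaaacatctatatc (chr8:55040569-55040598, plus strand)
Arf4: aacaatgttgctATTTAgcaatatgcttgg (chr14:26377300-26377329, plus strand)
Uqcrfs1: ctaggttggttgATTTAaaatatttaagaa (chr13:30724607-30724636, minus strand)
C1d: attcatgtataaATTTAcacattacatttg (chr11:17216798-17216827, plus strand)
Lurap1l: atctctatttTTATTTATTgtaataatctc (chr4:80872366-80872395, plus strand)
Pam: gaagtttagctcATTTAcatttggagaccc (chr1:97749233-97749262, minus strand)
Lamp2: gaatacatttgtATTTAatgtggctgaaat (chrX:37510052-37510081, minus strand)
Svep1: tttctatataaaATTTAtattaaacggacg (chr4:58042914-58042943, minus strand)
Tmem59: atttttctagtcATTTAagatggacattgg (chr4:107057873-107057902, plus strand)
Lum: tgttttatgaacATTTAccacatttaaata (chr10:97408054-97408083, plus strand)

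The second set shows the longest run of T, in capitals, in the deeply covered members with the highest T share. These runs were 10, 16, 9 and 13 bases long, in the order printed.
Nup93: ttctttttccTTTTTTTTTTcctttaaaat (chr8:95041491-95041520, plus strand)
Hnrnpl: tgtttggTTTTTTTTTTTTTTTTcttgttt (chr7:28521397-28521426, plus strand)
Hdac2: atgaagcaaaTTTTTTTTTccaccatgctt (chr10:36877730-36877759, plus strand)
Tnfaip6: gttgttggTTTTTTTTTTTTTattttgttt (chr2:51946045-51946074, plus strand)

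T-rich intervals were also rich in A and poor in C and G. The median member held 37.3% T, 28.9% A, 17.3% G and 15.9% C, against 28.4% T, 26.4% A, 22.4% G and 22.5% C in the other intervals of this length. The median length was 752 bases against 1044 bases. The highest T share, 50.3%, was that of Pou1f1, a pituitary transcription factor, which had 0 reads over all libraries and is named here after its values were seen. The last exon of the named gene held 79.9% of the T-rich and 80.4% of the other intervals, so that both sets lay at gene ends to a like degree. Of the members, 1387 were on assembled GRCm39 chromosomes, and their T content matched the genome in all 1387. A gene on the opposite strand overlapped 244 members, and 821 overlapped another distinct interval, so that members of 1 gene often shared reads. T-rich intervals were unevenly spread over chromosomes. On the X chromosome 134 of 873 intervals of this length were T-rich (15.3%), against 53 of 1867 (2.84%) on chromosome 11, the lowest share. The median labeled rate of the covered T-rich intervals was 0.0409 on X (55 intervals) and 0.0411 elsewhere (621 intervals).

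Short motifs known from 3′ UTR control were denser in T-rich intervals. Such a density follows base composition, which the rule fixed. ATTTA, the core of AU-rich elements, was found in 88.5% of the T-rich and 69.5% of the other intervals, with 3.71 against 1.69 occurrences per kb. The nonamer TTATTTATT, which contains ATTTA and is the longer form typical of unstable mRNAs, was found in 9.30% against 6.08%. TGTANATA, the site of Pumilio proteins that recruit the deadenylation machinery, was found in 30.4% against 21.2%. A run of 8 or more T was found in 43.4% against 25.6%. The polyadenylation signal AATAAA lay in the last 300 bases of 73.5% against 66.8%. All motifs were searched on the transcript strand only, in the 1387 T-rich and 21752 other intervals on assembled chromosomes.

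The labeled libraries had 1576048, 1194971 and 506045 reads on 1 interval per gene, and the unlabeled libraries 1843033 and 996143. The 1392 T-rich intervals held 33601 to 136474 reads per library, with reads on overlapping intervals counted on each. Fibroblast markers summed to 30490 to 41510 CPM relative to counted reads (the CPM scale computed from the reads on 1 interval per gene), with Col1a1 the highest, and all 8 markers had reads. Summed levels were 76.1 to 146 for 8 macrophage, 93.9 to 199 for 4 endothelial, 306 to 575 for 4 smooth muscle and pericyte, and 0.635 to 8.03 for 5 cardiomyocyte markers, with Ryr2 at 0 in all 5 libraries. Pdgfrb alone made up 298 to 561 of the smooth muscle and pericyte sum, and Cspg4, Myh11 and Rgs5 were at most 7.90 each. In these bulk libraries, fewer cells of a type and less RNA per cell cannot be told apart.

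T-rich intervals gained a T>C signal with labeling almost throughout, as other intervals did. A beta-binomial test (two-sided, called at an unadjusted p below 0.05) compared labeled with unlabeled libraries wherever each library covered at least 1 T. Among the 850 T-rich intervals tested, 834 had a higher rate with S4U (98.1%), and 0 had a lower one, against 94.6% called higher over all 19240 intervals tested. Other intervals of this length were called in 11886 of 12475 (95.3%). The 16 members without a call had a median of 31.5 covered T positions in their least covered library, against 389 for those called. Members with at least 100 covered T positions per library are called covered here, and of these 676 intervals, 671 had each labeled rate above both unlabeled rates, as did 8941 of the 8991 other intervals that met the same limit. No library had a read on 333 members, and at least 1 library had a read on 1059.

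Covered T-rich intervals had higher T>C rates than other intervals of this length in each labeled library, and rates near those of the others without S4U. The comparison used the 676 covered members (487 gene names) and the 8991 other intervals that met the same limit. These were 48.6% of the T-rich and 41.3% of the other intervals, and their median levels were 45.5 and 43.4 CPM relative to counted reads. The median rate of T-rich intervals was 0.0402, 0.0406 and 0.0427 in labeled replicates 1, 2 and 3, against 0.0374, 0.0385 and 0.0384 for the others. The labeled medians of the T-rich intervals thus lay above every labeled median of the others. In the unlabeled libraries the medians were 0.000681 against 0.000462 in replicate 1 and 0 against 0 in replicate 2. The difference in the labeled libraries was 0.00304 ± 0.00112 (SD, n = 3), with the same sign in 3 of 3 libraries. An exact sign-flip permutation test gave p = 0.25, the smallest that 3 libraries allow. The exact permutation test of labeled against unlabeled differences gave p = 0.1, also the smallest that this design allows. Both tests were two-sided. When conversions and covered T positions were pooled over intervals, labeled rates were 0.0382, 0.0404 and 0.0407 against 0.0349, 0.0352 and 0.0348, a mean difference of 0.00477. Pooled unlabeled rates were 0.00109 against 0.00110 and 0.000622 against 0.000653, and the pooled background per T was thus not higher in the T-rich intervals.

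**Figure D1:**
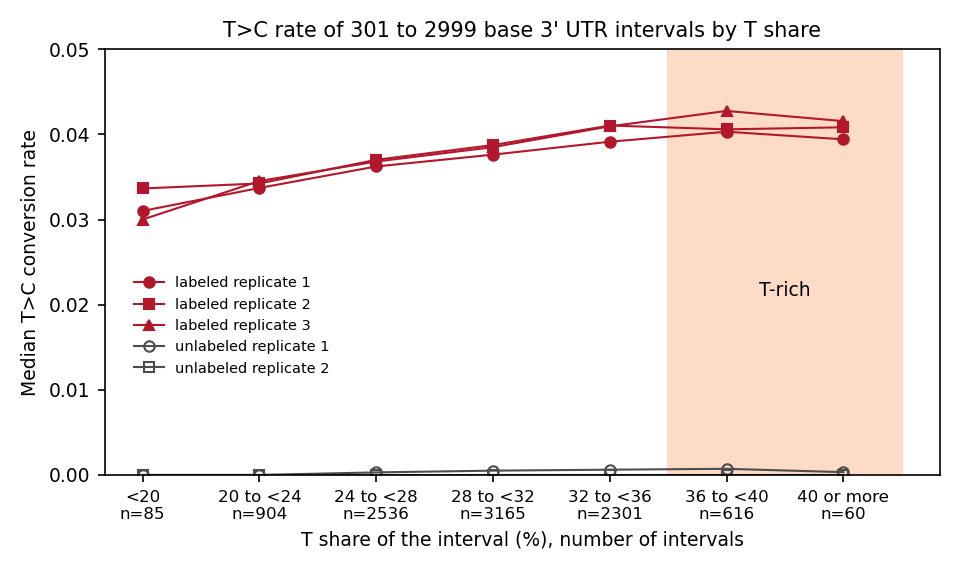
Median T>C conversion rate (y axis) of covered intervals of middle length by their T share in percent (x axis, with the number of intervals), 1 line for each library. The labeled lines rise up to a T share of 36%. In the first class above 36%, the lines of labeled replicates 1 and 3 rise further, and both fall in the last class. The line of labeled replicate 2 changes little above 36%, and the unlabeled lines stay near 0.

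The median of the mean labeled rate rose with T share from 20% up to the class of 36 to 40%, and was lower at 40% or more. The median of the mean labeled rate was 0.0354 in intervals with under 20% T, 0.0353 at 20 to 24%, 0.0372 at 24 to 28%, 0.0386 at 28 to 32% and 0.0406 at 32 to 36%. Within the T-rich range it was 0.0412 at 36 to 40% (616 intervals) and 0.0401 at 40% or more (60 intervals). Between the classes of 32 to 36% and 36 to 40%, the median rose from 0.0391 to 0.0403 in labeled replicate 1. It rose from 0.0409 to 0.0428 in labeled replicate 3, and fell from 0.0410 to 0.0406 in labeled replicate 2. Spearman's rho between T share and rate over the 9667 covered intervals of this length was 0.206, 0.219 and 0.163 in the labeled libraries. Over the 676 T-rich intervals alone it was 0.0133, -0.0486 and -0.102. These correlations are descriptions across intervals, which share a library and often reads. Labeled rates of the T-rich intervals correlated between libraries with rho of 0.221 to 0.263, so that most intervals were not ranked alike by different libraries at this depth.

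The T-rich set lay higher from the low to the high end of the distribution, and more so toward the low end. The 10th percentile was 0.0321 against 0.0282 and the 90th percentile 0.0479 against 0.0464. A mean labeled rate below 0.025 was found in 21 of the T-rich intervals (3.11%) and 587 of the others (6.53%). A rate above 0.045 was found in 156 T-rich (23.1%) and 1283 other intervals (14.3%). In the single libraries, 4.59%, 4.88% and 10.4% of the T-rich intervals were below 0.025, against 10.1%, 8.97% and 13.7% of the others, so that low rates were the rarer in T-rich intervals each time. Among deeply covered intervals, 7 of 204 T-rich intervals (3.43%) and 203 of 1982 others (10.2%) lay below 0.025.

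**Figure D2:**
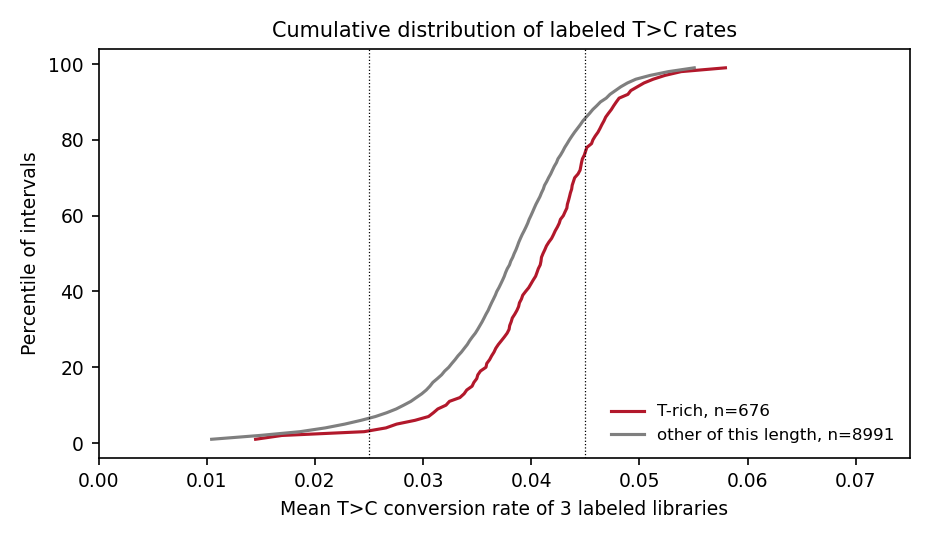
Percentile (y axis) of the mean T>C conversion rate of the 3 labeled libraries (x axis) for 676 T-rich and 8991 other intervals, with dotted lines at 0.025 and 0.045. The T-rich curve lies to the right, with medians of 0.0411 and 0.0384.

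Reads on T-rich intervals covered more T positions in all libraries, which follows from the rule. The share of reads with a conversion rises with the T positions per read at any given rate, so it is given as a description, with no test. The median share of reads with at least 1 conversion was 56.5%, 61.9% and 62.8% in the labeled libraries for T-rich intervals, against 47.8%, 53.3% and 53.3%. Without S4U it was 1.84% against 1.04% in replicate 1 and 0% against 0% in replicate 2. The labeled difference was 8.95 ± 0.460 percentage points (SD, n = 3), higher in 3 of 3 libraries. A read on a T-rich interval covered 21.6, 25.1 and 25.3 T positions in the labeled libraries, and a read on another interval 18.5, 20.9 and 21.3. In the unlabeled libraries the values were 23.1 and 26.0 against 19.6 and 21.8, so that this excess was found with and without S4U. Conversions per read were 0.823, 1.01 and 1.03 against 0.646, 0.737 and 0.740. The bases near the 3′ end, where these reads fall, held a median of 38.7% T over the last 300 bases of the T-rich and 31.3% of the other intervals.

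**Figure D3:**
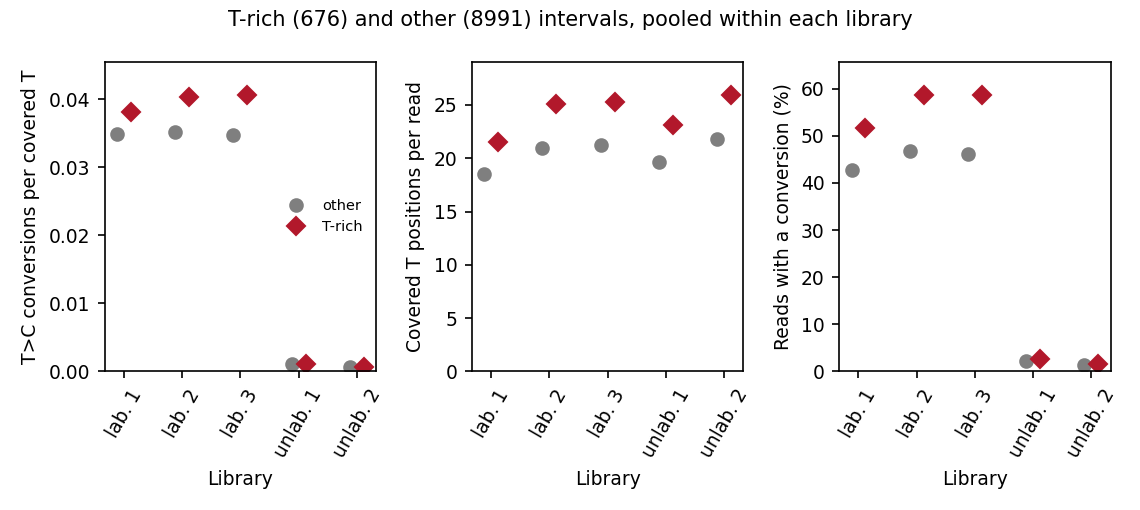
Pooled T>C rate (left), covered T positions per read (middle) and percent of reads with a conversion (right) in each of the 3 labeled and 2 unlabeled libraries (x axis), for covered T-rich (diamonds) and other intervals (circles). T-rich values are higher in all libraries for the covered T positions per read, and in the labeled libraries for the rate.

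The T-rich intervals of the highest rates belonged to genes of varied roles. They were selected for their rates among the 147 deeply covered genes, so these values are a description. The interval of Asb5 (chr8:55040397-55040877, plus strand, 40.1% T), whose product is a SOCS box protein of the kind that guides ubiquitin ligases, had rates of 0.0536, 0.0570 and 0.0627. No conversion was seen in either unlabeled library, which allows up to 3 of 7415 and of 2321 covered T positions. Arf4, a small GTPase of Golgi transport, had a rate of 0.050 in each labeled library, the closest agreement among the 6. Uqcrfs1, the iron-sulfur subunit of respiratory complex III, had 0.0492, 0.0569 and 0.0439. C1d, a cofactor of the nuclear RNA exosome, had 0.0487, 0.0532 and 0.0478. The labeled libraries of Lurap1l spanned 0.0439, 0.0537 and 0.0499. Ptpn12, a cytosolic tyrosine phosphatase of focal adhesions, had 0.0486, 0.0464 and 0.0489, with unlabeled rates of 0.00412 and 0.00323. The labeled range of Asb5 did not overlap those of Arf4, C1d and Ptpn12, and that of Arf4 did not overlap that of Ptpn12. The labeled ranges of all other pairs of these genes overlapped.

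The genes of the lowest rates were chosen in the same way, and their values are a description too. Below 0.025 lay 7 deeply covered intervals of 6 genes, of which 5 genes are described, with Pam represented by 2 overlapping intervals. Pam, an enzyme that amidates secreted peptides, had 0.0149, 0.0146 and 0.0170. Lamp2, a lysosomal membrane protein, had 0.0151, 0.0201 and 0.0120. All labeled values of both genes were far below those of the high-rate intervals. Svep1, a large matrix protein, had 0.0155, 0.0209 and 0.0133. Tmem59, a membrane protein of the Golgi and endosomes, had 0.0159, 0.0194 and 0.0146. Lum, the matrix proteoglycan lumican, had 0.0157, 0.0189 and 0.0182, and 3.39e-05 and 5.30e-05 without S4U (chr10:97407914-97408565, plus strand). The labeled ranges of these 5 genes overlapped each other, and each labeled rate was above both unlabeled rates of its gene. The shares of reads with a conversion were 20.2% to 29.8% for Lum and 72.5% to 76.7% for Asb5. The 11 intervals described lay in annotated 3′ UTR of the last exon, and those of Asb5 and Svep1 overlapped a gene on the other strand, whose part in the values was not tested.

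**Figure D4:**
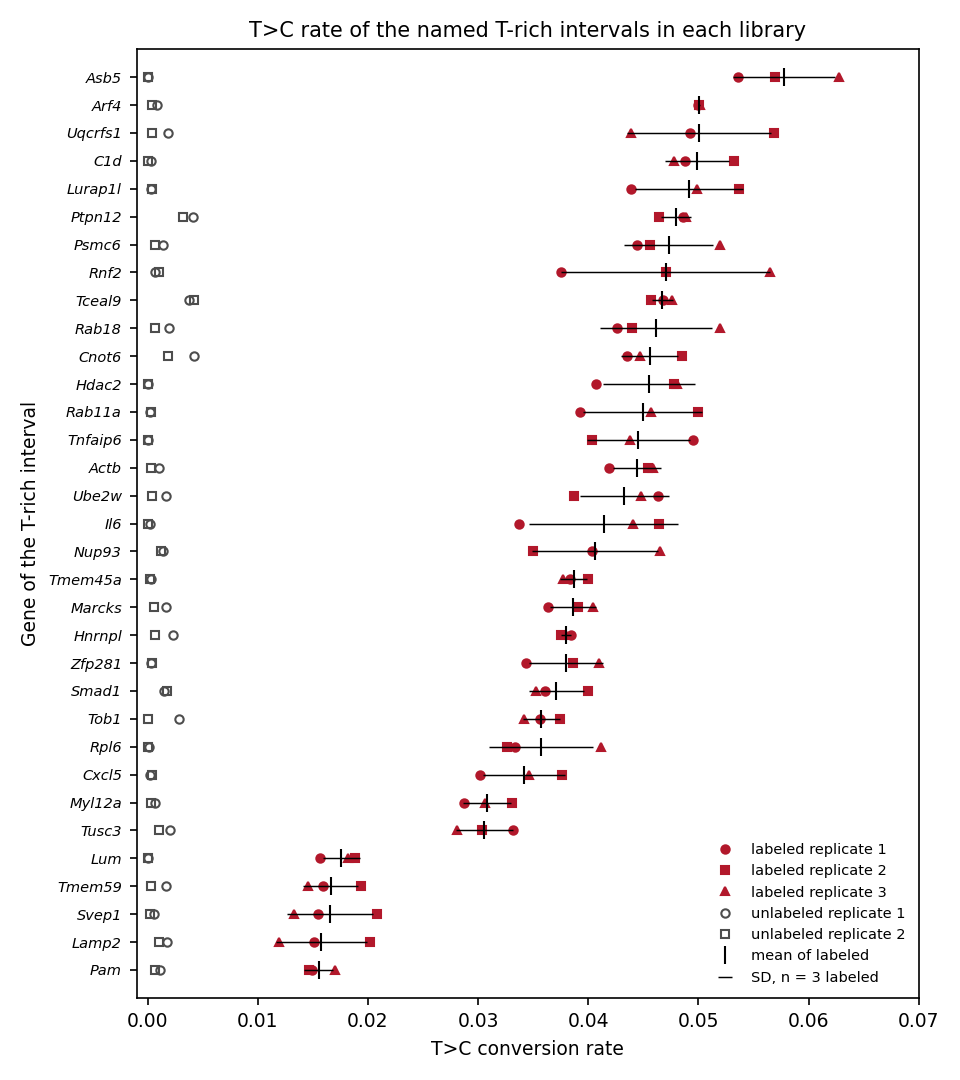
T>C conversion rate (x axis) of the T-rich intervals named by the rule (y axis, by gene) in 3 labeled (filled) and 2 unlabeled libraries (open), with the mean and SD of the labeled libraries. The 5 genes from Pam to Lum lie below 0.021 in every labeled library, and all others lie above 0.028.

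The 6 deeply covered T-rich genes with most reads included Actb, Marcks and Myl12a. Actb, cytoplasmic actin (chr5:142888870-142889552, minus strand), had 3705, 5525 and 5958 CPM relative to counted reads in the labeled and 2754 and 3724 in the unlabeled libraries. The groups overlapped, and its log2 fold change was 0.72 (SE 0.33, adjusted p = 0.87, edgeR's quasi-likelihood test). It was higher in the labeled library of both same-numbered pairs, and with the replicate number as a block edgeR's adjusted p was 0.00495. Marcks, an actin-binding substrate of protein kinase C, had 2476, 1697 and 2205 against 2396 and 2096. Myl12a, a regulatory light chain of nonmuscle myosin, had 1138, 1675 and 1757 against 1155 and 1543. The remaining genes of the 6 were Tmem45a, Tceal9 and Lamp2, with labeled means of 991, 973 and 948. The rates of Actb were 0.0419, 0.0454 and 0.0459, and those of Marcks 0.0364, 0.0391 and 0.0405. Tceal9 had rates of 0.0468, 0.0457 and 0.0476 with unlabeled rates of 0.00373 and 0.00419, among the highest backgrounds of the members. Both unlabeled rates were at least 0.003 in 6 of the 676 T-rich intervals (0.888%) and 177 of the 8991 others (1.97%). An interval of Myl12a overlapped another gene on the same strand, and its part in the reads was not tested.

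The deeply covered members with the highest T share spanned the lower to the upper range of rates. Their mean labeled rates reached from 0.0380 for Hnrnpl to 0.0455 for Hdac2. The quartiles of all deeply covered T-rich intervals were 0.0386 and 0.0442. Nup93, a scaffold protein of the nuclear pore (43.9% T), had rates of 0.0403, 0.0350 and 0.0465. Hnrnpl, an RNA-binding regulator of splicing (43.1% T), had 0.0385, 0.0376 and 0.0380. Hdac2, a histone deacetylase (42.7% T), had 0.0407, 0.0477 and 0.0480. Tnfaip6, a hyaluronan-binding protein of inflamed tissue (42.5% T), had 0.0496, 0.0403 and 0.0438, and no conversion in 2948 and 1819 covered T positions without S4U. Set against the median T-rich interval of each labeled library, Hnrnpl was lower and Hdac2 higher in each, and Nup93 and Tnfaip6 were higher in some and lower in others.

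Of the members nearest the limit of 36% T, Ube2w, Tusc3 and Myl12a lay inside with 36.01%, 36.02% and 36.02% T and mean rates of 0.0433, 0.0305 and 0.0308. The nearest outside were Atp6ap2, Irf2bpl and Hnrnpk, at 35.99%, 35.99% and 35.96% T, with mean rates of 0.0268, 0.0277 and 0.0430. Rates on both sides of the limit thus covered a like range.

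Genes with a T-rich interval were counted in 16 gene lists. Over all genes with an interval of middle length, 1039 of 14050 had a T-rich one (7.40%). These shares are a count over the annotation and were not tested. Regulators of mRNA decay had 3 of 20, proteasome subunits 2 of 13 and cell cycle genes 4 of 25. Cytokines and chemokines had 2 of 17, and respiratory chain subunits and cytosolic ribosomal proteins 2 of 21 each. Counts below the share of all genes were found for collagens and other matrix proteins (1 of 63, which was Lum), solute carriers (7 of 264) and Zfp zinc finger genes (12 of 295). Immediate early genes had 1 of 25, which was Myc, TGF-beta, BMP and activin signaling 1 of 16, Rnf genes 4 of 59 and Rab GTPases 3 of 52. No T-rich interval was annotated for 33 MAP kinase cascade kinases, 24 integrin subunits and 38 mitochondrial ribosomal proteins.

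**Figure D5:**
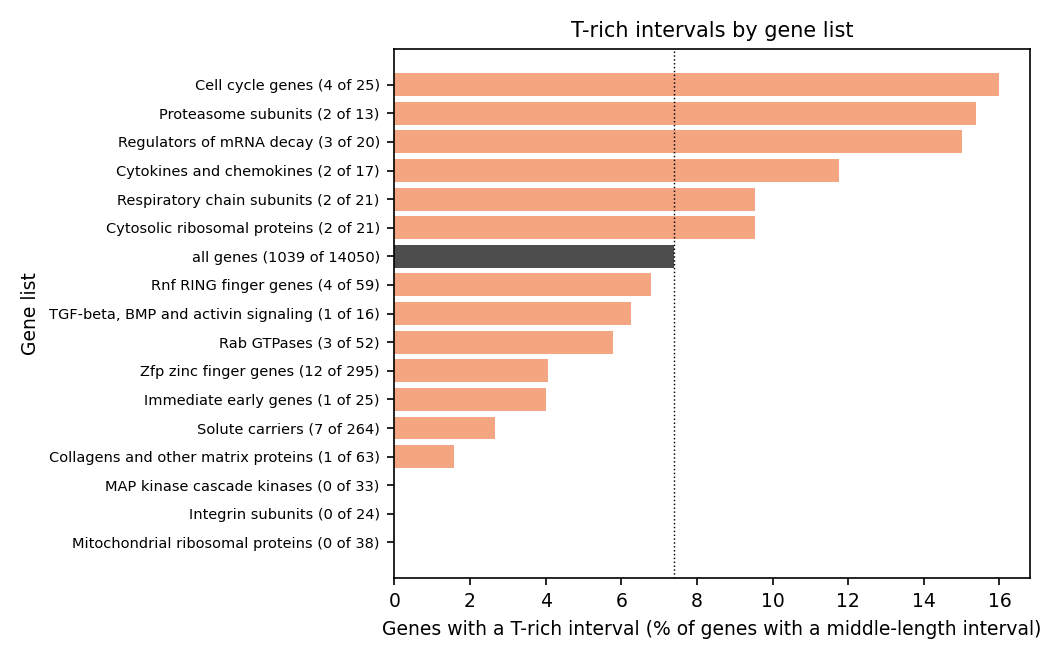
Percent of genes with a T-rich interval among genes with an interval of middle length (x axis) for 16 gene lists and all genes (dark bar, dotted line at 7.40%), with the counts beside each list. Collagens and other matrix proteins have 1 of 63 and cell cycle genes 4 of 25.

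Cytokine transcripts with T-rich intervals were abundant enough to be followed. Il6, a cytokine of the acute phase response, had rates of 0.0337, 0.0464 and 0.0441, and 93.3, 77.8 and 85.0 CPM relative to counted reads in the labeled against 70.0 and 44.2 in the unlabeled libraries. The groups did not overlap in level, but the log2 fold change of 0.66 (SE 0.29) had an adjusted p of 0.87 (edgeR), and an adjusted p of 0.0211 with the replicate number as a block. Cxcl5, a neutrophil attractant, had rates of 0.0302, 0.0376 and 0.0347 and levels of 450, 585 and 520 against 552 and 627. Its interval did not lie within an annotated UTR of the gene, and both intervals overlapped a gene on the other strand. The 12 other covered intervals of this list had a median rate of 0.0439. Myc, the immediate early transcription factor, had a mean labeled rate of 0.0361 at 13.8 CPM relative to counted reads.

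Among regulators of mRNA decay, Cnot6, a deadenylase of the CCR4-NOT complex, had rates of 0.0435, 0.0485 and 0.0447. Tob1, an adaptor that brings this complex to mRNAs, had 0.0356, 0.0375 and 0.0342. The labeled values of the 2 genes did not overlap. Cnot2 had a T-rich interval without a covered T in at least 1 library and is given no rate here.

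Transcripts of basic cell functions spanned the low to the upper range, with Psmd12 and Rpl6 below the lower quartile of the covered T-rich intervals, 0.0367. Rpl6, a protein of the large ribosomal subunit, had 0.0333, 0.0326 and 0.0411. Psmc6, an ATPase of the proteasome cap, had 0.0444, 0.0456 and 0.0519, and Psmd12, another subunit of the cap, a mean of 0.0334. Among the respiratory chain subunits, Ndufv2 of complex I had a mean labeled rate of 0.0435, below the 0.050 of Uqcrfs1. The cell cycle members ranged from 0.0407 for Mcm4, a subunit of the replicative helicase, to 0.0599 for Pcna, the sliding clamp of DNA replication. Between them were Cdkn2c, an inhibitor of cyclin-dependent kinases, at 0.0411 and Ccnb1, the mitotic cyclin B, at 0.0479. These 4 rested on as few as 254 to 538 covered T positions in their least covered library, and the 28 other covered intervals of the list had a median of 0.0488.

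Signaling, transport and chromatin genes with T-rich intervals lay on both sides of the median of the set. Rab11a, of recycling endosomes, had rates of 0.0392, 0.050 and 0.0457, and Rab18, of lipid droplets and the endoplasmic reticulum, had 0.0426, 0.0440 and 0.0520. Rab21 had a mean of 0.0457, so that the 3 Rab members were close to each other, with the 40 other covered Rab intervals at a median of 0.0403. Rnf2, the ubiquitin ligase of Polycomb complexes, had 0.0375, 0.0470 and 0.0565, a wide spread, on an interval outside the annotated UTR and last exon of the gene. Smad1, which carries BMP signals to the nucleus, had 0.0361, 0.0400 and 0.0353. Zfp281, a zinc finger transcription factor, had 0.0344, 0.0386 and 0.0410. Of the 7 solute carriers with a T-rich interval, Slc33a1, an acetyl-CoA carrier, was the one covered member, at a mean rate of 0.0456.

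Whether reads on T-rich intervals differed between labeled and unlabeled CF depended on the use of the replicate number. Without it, edgeR's quasi-likelihood test called 0 higher and 0 lower of the 421 members that represented their gene and passed the filter on low counts, against 0% of all 9807 genes in each direction (adjusted p below 0.05, Benjamini-Hochberg). At an unadjusted p below 0.05, 7 were higher, with 2.84% of all genes called higher, and 14 were lower, with 3.12% of all genes called lower. With DESeq2, 0 of 574 members were called, against 0.0697% of all 14337 genes called higher and 0.0279% called lower. An unadjusted p under 0.05 was found for 6 higher members, against 1.42% of all genes, and for 9 lower members, against 1.3% of all genes. With the replicate number as a block, edgeR called 25 members higher, against 5.38% of all genes, and 36 lower, against 6.3% of all genes. The labels do not say what the number marks. The median log2 fold change without the block was -0.04 over the members and 0.02 over all genes tested. Over the members it was -0.15 without labeled replicate 1, -0.0047 without labeled replicate 2 and -0.051 without labeled replicate 3. It was -0.13 without unlabeled replicate 2 and 0.071 without unlabeled replicate 1, the one library whose removal turned its sign. T-rich intervals took 6.89%, 6.39% and 6.65% of the reads of middle-length intervals in the labeled and 7.31% and 6.68% in the unlabeled libraries, counted over all distinct intervals. The groups overlapped, with a difference of -0.353 percentage points (exact permutation test, two-sided, p = 0.4). The share was lower in the labeled library of both same-numbered pairs, which this test did not use. The difference was -0.0380 without unlabeled replicate 1 and -0.668 without unlabeled replicate 2.

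Reads per length were higher on T-rich than on other intervals in every library, with or without S4U. The median number of reads per kb was 16.2, 11.1 and 4.66 in the labeled libraries, against 7.81, 6.64 and 2.52 on the others, and 25.1 and 10.4 against 9.67 and 5.53 in the unlabeled libraries. Since 3′ end libraries count transcripts at their ends whatever the length of the UTR, and the T-rich intervals were shorter, the reads per interval are the closer measure of level. Their medians were 16, 10 and 4 against 9, 8 and 3, and 22 and 10 against 11 and 6. Intervals without a read made up 29.7%, 31.0% and 34.8% of the T-rich and 31.7%, 32.6% and 38.5% of the others in the labeled libraries. Among the 100 most abundant gene intervals of this length, 7 were T-rich.

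Within the T-rich intervals, those with an AU-rich motif did not have a rate that was clearly apart from those without. With ATTTA (601 intervals) the median rates were 0.0403, 0.0405 and 0.0427, and without it (73 intervals) 0.0392, 0.0422 and 0.0420, so that the direction changed between libraries. The difference of 3.31e-05 ± 0.00150 was within the spread of the libraries. Among the other intervals of this length the same difference was 0.00246 ± 0.000559. The 76 T-rich intervals with TTATTTATT had 0.0405, 0.0417 and 0.0441 against 0.0402, 0.0405 and 0.0422, a difference of 0.00111 ± 0.000797 with the same sign in 3 of 3 libraries. Differences for TGTANATA and for a run of 8 or more T were 6.68e-06 ± 0.000537 and -0.000152 ± 0.00118. The values are SD over the 3 labeled libraries, and no test was made. In deeply covered members, the difference for TTATTTATT was -6.19e-05 and that for ATTTA -0.000835.

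Few genes allowed a comparison of a T-rich with another interval of the same gene. Whether the intervals of a pair belong to the same transcripts was not tested. In 13 genes with such a pair of intervals that did not overlap, the T-rich interval was higher in 6, 9 and 7 genes in labeled replicates 1, 2 and 3, and the median differences were -0.000851, 0.00400 and 0.00155. It was higher in all labeled libraries in 3 genes and lower in 1. Lamp2, the pair with the most reads, had 0.0151, 0.0201 and 0.0120 on the T-rich interval and 0.00754, 0.0107 and 0.0104 on the other one. Septin11, a cytoskeletal GTP-binding protein, had 0.0402, 0.0401 and 0.0497 against 0.0358, 0.0367 and 0.0401. In Caprin1, an RNA-binding protein of stress granules, the values were 0.0357, 0.0399 and 0.0538 against 0.0439, 0.0431 and 0.0395. The direction was the same in 3 of 3 libraries for Lamp2 and Septin11 and mixed for Caprin1.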

How the data were processed

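Per the labels and the study's methods, the authors used SLAM-DUNK 0.4.3 to map UMI-tagged 3′ end reads (mm39), removed duplicates and counted on 3′ UTR intervals. The deposited tables give, for each interval and library, counts of reads, reads with a conversion, covered T positions and conversions, the conversion rate as a fraction, and CPM. The deposited CPM divides by more reads than were counted on the intervals (10975173 to 14616278 per library), so CPM relative to counted reads were computed here from the counts. Each table held 97442 rows. Duplicate rows were dropped. Where 1 interval per gene was needed, the one of highest mean labeled CPM was taken. Sequences and annotation were read from GRCm39 and GENCODE, with coordinates counted from 1.

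T>C rates were tested by a likelihood ratio under a beta-binomial model, with 1 overdispersion for each interval, shared by both groups. Read counts were tested with edgeR 4.0.16 (TMM, filterByExpr, quasi-likelihood), and values per library with exact permutation tests. Further software was DESeq2 1.42.0 and limma 3.58.1 in R 4.3.3, and matplotlib 3.10.9, numba 0.67.0, pandas 2.3.3, scipy 1.17.1 and numpy 2.4.6 in Python 3.11.15. T-rich intervals covered 849064 to 3151597 T positions per library. On simulated data the beta-binomial test called 90% of 200 doubled rates among 3000 intervals and 7.04% of the unchanged ones. The simulated intervals had at least 100 covered T positions per library and a base rate far above the measured unlabeled rates. These shares thus do not describe intervals of lower coverage or the measured contrast. On simulated read counts, edgeR recovered 118 of 200 genes with a log2 fold change of 2 among 9807, with 9 false calls (DESeq2 97, with 6).

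The members, gene lists and rules were chosen with earlier results of these data known. Named genes came from members with 1000 or more covered T positions per library: the 6 of highest and of lowest rate, the 6 of most reads, the 4 of highest T share, the 2 with most reads of each of 16 lists, the 3 nearest to the limit on each side, and the 4 within-gene pairs with most reads. Members of a list below that coverage are named as further members of it. Alternatives were other limits of T share, length and coverage, 1 interval per gene, classes of read level, pooling over intervals, Benjamini-Hochberg adjustment, limma on log odds (pseudocount 0.5), DESeq2, no filter, a replicate block and each library left out. Leaving out unlabeled libraries for the beta-binomial test was added after the data were seen. Results for some of the named genes are left out.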

Additional observations from a re-analysis of the deposited data

How the results depend on the processing

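Of the 834 raised T-rich intervals, 204 remained testable and raised with at least 1000 covered T positions and 469 with 1 interval per gene, as fewer intervals were tested, and without single libraries the count was 802 to 850. The difference in median rate was 0.00243 to 0.00352 without single libraries, and 0.00477 when pooled over intervals. It was 0.00204 from a T share of 0.38, the smallest value of the alternatives. The other alternatives kept its sign. The difference in the share of reads with a conversion was 10.9 points with at least 1 covered T, 8.02 with at least 1000, 8.17 from a T share of 0.38, 9.42 with 1 interval per gene, 11.1 when pooled and 10.8 for intervals under 1000 bases, and 8.68 to 9.11 without single libraries. The share of reads on T-rich intervals differed by -1.31 points from a T share of 0.34 and by -0.668 to -0.0380 without single libraries. The within-gene difference was 0.00600 in the 2 genes that reach 1000 covered T positions, -0.000892 in the 2 genes that differ by at least 0.1 in T share, and 0.000347 to 0.00277 without single libraries. For TTATTTATT the difference was -6.19e-05 with at least 1000 covered T positions and 0.000172 for the last 300 bases, and 0.000725 to 0.00152 without single libraries. For ATTTA it was -0.000835 with at least 1000, and -0.000490 to 0.000894 without single libraries. For TGTANATA it was -0.00137 with at least 1000, -0.000761 for the last 300 bases and -0.000208 to 0.000308 without single libraries. For runs of T it was -0.000717 to 0.000459 without single libraries. The cause of these shifts was not tested.

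With the replicate number as a block, edgeR called 61 of the 421 T-rich genes (25 higher, 36 lower) and 528 higher and 618 lower of all 9807, against 0 without it. Residuals, taken as deviations from the mean of each group, correlated at 0.775 and 0.624 in same-numbered libraries. Those of labeled replicate 3 and unlabeled replicate 2 correlated at 0.468. The residuals of the 2 unlabeled libraries are each other's negative and the labeled ones sum to 0, so these correlations are not independent. The labels do not say what the number marks. The rate of intervals with few covered T positions is limited by depth, most of all in labeled replicate 3, and the exact permutation tests over libraries could not reach 0.05.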
